A study of Drosophila melanogaster with 2 samples.

Results

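Chromatin immunoprecipitation sequencing of the Drosophila melanogaster transcription factor foxo gave 193 peaks whose summit lay between 2 divergent gene starts, 13.5% of the list of peaks that the authors kept as reproducible (the IDR list). A summit was taken when a transcription start site (TSS) on the minus strand lay 0 to 500 bp to its left and a TSS on the plus strand lay 0 to 500 bp to its right, so that both genes were read away from the peak. The rule used only the position of the summit and the annotation, not the strength of the peak. The rest of the list comprised 547 peaks with another kind of TSS within 500 bp, called other promoter peaks below, and 687 peaks farther from any TSS. The 193 peaks lay between 192 different pairs of starts, and the pair crp and pkaap held 2 (named after the values were seen).

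The material was whole wandering larvae of the third instar, male and female together, from flies with a transgene for foxo joined at its C-terminus to GFP (foxo-eGFP). Per the descriptions, chromatin was precipitated with an antibody against GFP, although another label gives foxo as the antibody. Both samples, biological replicates 5 and 6, formed 1 group, so no condition, genotype or stage could be compared, and all tissues of the animal were mixed. The control library used by the authors was not analysed here, and the depth of the libraries is unknown.

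Foxo is a forkhead transcription factor that insulin signalling keeps out of the nucleus through Akt, and that acts on genes of growth, stress and metabolism when insulin signalling is low. Divergent promoters are common in the compact fly genome. The genes of such a pair start on opposite strands of one short stretch of open chromatin, and many of them are active in most cells. Sequence elements often found in promoters of that kind include the DNA replication-related element, bound by Dref and overlapping the CGATA core bound by the insulator protein BEAF-32, while GAGA elements, bound by GAGA factor, mark many developmentally regulated promoters.

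The sequences between the starts are shown first for 8 peaks, from 3 classes. The first class had the DNA replication-related element TATCGATA between the starts as well as within 100 bp of the summit, the second had TGTTTAC, the core of the FOXO recognition element, in the same way, and the last had neither between the starts. Within each class the peaks of highest signal were taken among pairs with no other start and no annotated exon between them, more than 60 and at most 300 bp apart, leaving aside 1 chromosome arm whose sequences are not printed. Each line runs 5′ to 3′ from the base after the left start to the base before the right start, on dm6, from the RefSeq Release 6 genome. Capitals mark TATCGATA, TGTTTAC and the TATA box word TATAAA, on either strand.
Atat and Shc (chr3L:9426759-9427009, plus strand): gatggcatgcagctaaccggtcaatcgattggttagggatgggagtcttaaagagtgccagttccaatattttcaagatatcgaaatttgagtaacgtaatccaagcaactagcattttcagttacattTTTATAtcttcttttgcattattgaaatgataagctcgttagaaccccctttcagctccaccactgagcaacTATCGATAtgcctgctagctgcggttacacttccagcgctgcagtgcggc
fws and Lamtor3 (chr2L:17481030-17481230, plus strand): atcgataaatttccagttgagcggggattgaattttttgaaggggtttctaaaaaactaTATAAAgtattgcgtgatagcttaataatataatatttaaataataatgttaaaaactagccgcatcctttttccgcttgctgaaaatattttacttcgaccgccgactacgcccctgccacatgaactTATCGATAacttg
Rab8 and Usp32 (chr3L:19871079-19871138, plus strand): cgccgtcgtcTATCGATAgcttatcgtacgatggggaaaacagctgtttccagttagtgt
Art3 and mRpS10 (chr3R:15229409-15229664, plus strand): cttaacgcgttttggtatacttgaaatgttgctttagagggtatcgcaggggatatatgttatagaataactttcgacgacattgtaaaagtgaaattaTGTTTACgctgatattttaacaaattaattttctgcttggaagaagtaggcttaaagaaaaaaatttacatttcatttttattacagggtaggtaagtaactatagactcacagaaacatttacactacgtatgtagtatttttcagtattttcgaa
CG9636 and CG18749/CG33722 (chr3R:8243793-8244054, plus strand): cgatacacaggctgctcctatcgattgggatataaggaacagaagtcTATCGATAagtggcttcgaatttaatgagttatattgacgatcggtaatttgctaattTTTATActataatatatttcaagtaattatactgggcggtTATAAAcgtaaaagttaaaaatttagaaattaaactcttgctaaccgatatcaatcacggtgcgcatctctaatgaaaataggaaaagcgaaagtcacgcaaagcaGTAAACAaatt
CG3437 and CG3552 (chr3L:9457670-9457911, plus strand): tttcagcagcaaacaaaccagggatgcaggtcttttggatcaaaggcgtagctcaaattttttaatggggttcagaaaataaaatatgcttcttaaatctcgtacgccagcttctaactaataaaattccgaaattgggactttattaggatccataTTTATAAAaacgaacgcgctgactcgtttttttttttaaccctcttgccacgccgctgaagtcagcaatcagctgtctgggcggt
Tcs5 and CHMP2B (chr3L:5139396-5139618, plus strand): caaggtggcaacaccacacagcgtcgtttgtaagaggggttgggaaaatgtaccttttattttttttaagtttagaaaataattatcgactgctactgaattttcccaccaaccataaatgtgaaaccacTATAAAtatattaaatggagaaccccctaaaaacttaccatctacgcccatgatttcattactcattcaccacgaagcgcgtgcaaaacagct
CG7601 and CIA30 (chr3R:29736746-29736964, plus strand): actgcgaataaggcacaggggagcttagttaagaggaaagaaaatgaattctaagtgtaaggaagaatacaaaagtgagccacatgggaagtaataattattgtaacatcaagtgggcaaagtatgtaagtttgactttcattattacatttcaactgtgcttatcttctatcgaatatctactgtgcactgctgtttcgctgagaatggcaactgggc

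Atat, an α-tubulin acetyltransferase, and Shc, a signalling adaptor, had a stretch of 251 bp with TATCGATA centred 68.5 bp from the summit and a TATAAA match 4.5 bp from it. Between fws, a subunit of the conserved oligomeric Golgi complex, and Lamtor3, a Ragulator subunit, TATCGATA was 64.5 bp from the summit. Between Rab8, a vesicle-trafficking GTPase, and Usp32 the starts left only 60 bp, and TATCGATA was 15.5 bp from the summit. The stretch between Art3, an arginine methyltransferase, and mRpS10, a mitochondrial ribosomal protein, held TGTTTAC centred 3 bp from the summit. CG9636 and CG18749/CG33722 was the 1 pair of the 193 with both words within 100 bp of the summit. Its TGTTTAC match was 48 bp away, and the TATCGATA match in its printed stretch, at 155.5 bp, was not the one counted, which lay beyond the right start. The peaks at CG3437/CG3552, Tcs5/CHMP2B and CG7601/CIA30 had neither word between the starts. The printed peaks were picked as the strongest of classes of unequal size, so their signals do not compare the classes.

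For contrast, 2 other promoter peaks are shown over 121 bp around the summit, the ones of highest signal with the GAGA word GAGAGAG in that window and no exon in it. Capitals mark GAGAGAG on either strand.
Syp (chr3R:20778622-20778742, plus strand): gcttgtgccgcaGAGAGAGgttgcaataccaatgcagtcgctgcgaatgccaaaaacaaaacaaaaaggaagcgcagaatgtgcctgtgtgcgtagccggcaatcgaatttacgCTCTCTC
CG7966 (chr3R:13051454-13051574, plus strand): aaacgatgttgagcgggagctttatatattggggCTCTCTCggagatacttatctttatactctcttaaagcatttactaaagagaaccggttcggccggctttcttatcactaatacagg
These summits lay 213 bp upstream of a start of Syp, which encodes an RNA-binding protein, and 61 bp upstream of CG7966.

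Divergent pairs took a larger share of foxo summits than of promoter sequence. They held 193 of the 740 summits within 500 bp of a TSS, or 26.1% (exact 95% binomial interval 22.95 to 29.4). Sequence between divergent starts made up 9.72% of all bases within 500 bp upstream of a TSS and held 193 of the 660 summits there, or 29.2%. The density was 203 summits per Mb between divergent starts and 52.98 per Mb in the other upstream sequence, a 3.84-fold difference (exact binomial test, two-sided, p = 6.18e-45). The 2 kinds of sequence were not matched for distance to a start or for activity of the genes. Each replicate also had a list of its own, and as many of its strongest regions as the IDR list holds were taken as that replicate's top regions. In these the same ratio was 3.89 in replicate 5 and 3.13 in replicate 6. All tests here take peaks, gaps or genes as units, so their p-values describe these regions and not the variation between animals.

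The divergent share was highest among the strongest regions. In the authors' longer pooled list, which holds 30000 regions, it was 26.1% at the ranks that make up the IDR list, 21.3% at ranks 1428 to 3000, 19.0% at ranks 3001 to 6000, 15.2% at ranks 6001 to 12000 and 8.76% at ranks 12001 to 30000. Replicate 5 alone gave 26.4%, 20.1%, 19.9%, 12.8% and 8.81% over the same ranks. Replicate 6 alone gave 21.3%, 18.7%, 17.7%, 15.2% and 9.84%. The order was the same in all 3 lists, and in replicate 6 the first value was lower than in replicate 5.

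**Figure D1:**
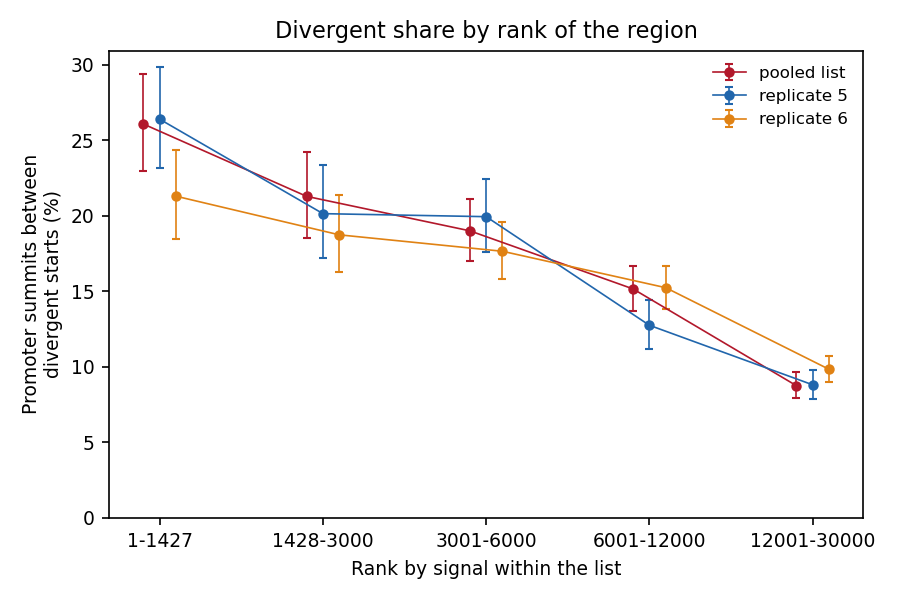
Share of promoter summits that lay between divergent starts (vertical axis, %) by rank of the region within its list (horizontal axis), with exact 95% binomial intervals, for the pooled list, replicate 5 and replicate 6. The share falls from left to right in each list, to 8.76% in the pooled list at ranks 12001 to 30000.

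The summits sat well inside the pairs. The nearer start was a median of 87 bp from the summit (quartiles 54 and 120) and the farther start 181 bp (quartiles 140 and 253), and in 118 peaks (61.1%) both starts were within 200 bp. The starts themselves were a median of 268 bp apart (quartiles 224 and 369, range 17 to 714). Of the 173 peaks whose starts were at most 500 bp apart, 90 had their summit in the central one of 3 equal stretches between the starts, or 52.02% (44.3 to 59.7). That share was 53.05% in the own regions of replicate 5 and 45.0% (36.8 to 53.3) in those of replicate 6. Summits spread evenly between the starts would fall alike in the 3 stretches. The left start was a median of 141 bp away and the right start 121 bp. In 152 peaks (78.8%) no further start lay between the pair, and in 41 at least 1 did. The summit was in no annotated gene in 121 peaks (62.7%), and in an exon, which can be the first exon of another transcript of the pair, in 43.

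At the edge of the rule, the peaks just inside had their farther start at 498 bp (pes and asRNA:CR44996, signal 81.2), 494 bp (app and CG32100, 80.6), 477 bp (CG14968 and ZnT63C, 119) and 475 bp (Spase22-23 and mask, 88.6). The first ones outside were at 501 bp (stg and CG45544, signal 156), 516 bp (Trmt6 and Ent2, 144), 518 bp (CG12929 and RpL31, 74.9) and 519 bp (CG3609 and CG15390, 85.6). Signal is the value of the authors' peak caller, whose scale is not stated.

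**Figure D2:**
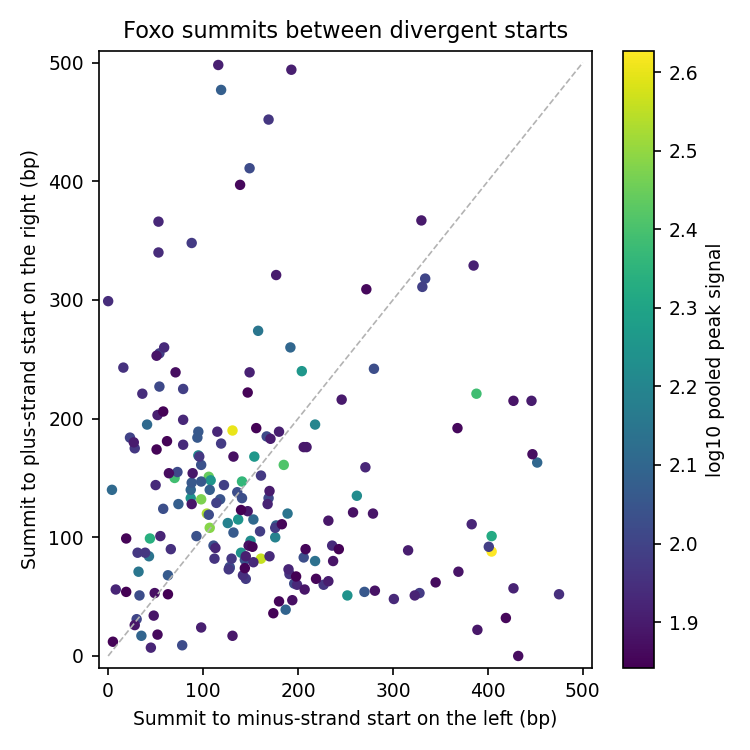
Distance from each of the 193 summits to the minus-strand start on the left (horizontal axis, bp) and to the plus-strand start on the right (vertical axis, bp), coloured by the log10 of the pooled signal. Most points lie below 200 bp on both axes, and the dashed line marks equal distances.

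Seen from the annotation, few divergent pairs held a peak. There were 3111 gaps between adjacent divergent starts at most 1000 bp apart, and 151 of them (4.85%) held one of the 193 summits. The 41 peaks with a further start between their pair lay in no such gap. They were left out of every comparison of gaps, here and below, and a gap beside one could count as unoccupied. The occupied gaps had a median length of 264 bp, and the 2935 gaps with no foxo summit 301 bp. Another 25 gaps held a summit that the 500 bp rule left out. Occupancy was 11.5% for gaps of 201 to 300 bp, 70 of 609 (exact 95% interval 9.07 to 14.3). It was 2.23% at 0 to 100 bp, 3.61% at 101 to 200 bp (2.12 to 5.72), 5.54% at 301 to 400 bp (3.58 to 8.14), 4.89% at 401 to 500 bp, 2.86% at 501 to 700 bp and 0.291% at 701 to 1000 bp. The interval at 201 to 300 bp overlapped none of the others. Each replicate's own regions occupied 65 of those 609 gaps, or 10.7%. The wide gaps could hold a summit only where both starts were within 500 bp. Per base, the gaps of 201 to 300 bp held 451 summits per Mb and those of up to 100 bp 390 per Mb. In replicate 5 alone these values were 419 and 425 per Mb, and in replicate 6 alone 419 and 142 per Mb.

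**Figure D3:**
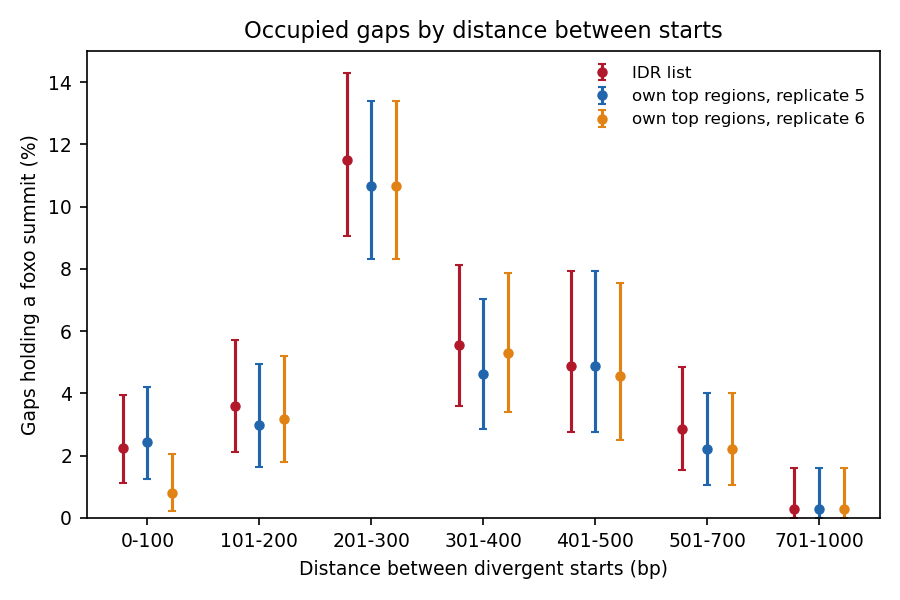
Share of gaps between adjacent divergent starts that held a foxo summit (vertical axis, %) by distance between the starts (horizontal axis, bp), with exact 95% binomial intervals, for the thresholded list (IDR) and for the own top regions of replicates 5 and 6. All 3 lists are highest at 201 to 300 bp, where the thresholded list reaches 11.5%.

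The strongest 12 peaks had signals of 218 to 424 and ranks of 9 to 81 in replicate 5 and 8 to 154 in replicate 6, and 10 peaks of the 193 were in the first 100 of both replicates. The first, between mRpS23, a protein of the mitochondrial small ribosomal subunit, and CenG1A, an Arf GTPase-activating protein, had signal 424, and ranked 18 in replicate 5 and 8 in replicate 6. Its summit was 404 bp from the start of mRpS23 and 88 bp from that of CenG1A. The second, between Chro, the chromodomain protein Chromator, and Ssl1, a subunit of the transcription factor TFIIH, had signal 399, ranked 9 in replicate 5 and 26 in replicate 6, and lay in an exon of Chro. The peak between Tcs5, a kinase of the KEOPS complex that modifies tRNA, and CHMP2B, an ESCRT-III subunit, had signal 337, with ranks 29 and 21 in replicates 5 and 6. These 3 were high in both replicates.

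The Art3/mRpS10 peak had signal 277, with rank 28 in replicate 5 and 77 in replicate 6. Pdrg1, related to prefoldin subunits, and Pal1, a lyase that completes peptide amidation, flanked a peak of signal 257. Stt3A, the catalytic subunit of oligosaccharyltransferase, and bves, a Popeye-domain membrane protein, flanked the strongest of the 10 peaks on X, of signal 244. These 3 peaks were the ones among the 12 with TGTTTAC within 100 bp of the summit, and none of the 12 had TATCGATA or GAGAGAG there. The CG7601/CIA30 peak, next to a complex I assembly factor, had signal 245. The peak between Mkk4, a kinase that activates JNK, and SLIRP2, an RNA-binding protein, had signal 230. Mnat9, an acetyltransferase, and CG1792 flanked the last of the 12, of signal 218. The others were CG3437/CG3552 (361), CG8372/CG8360 (305) and CG11309/CG7632 (296). None of the genes foxo, InR, Thor and Akt, which belong to insulin signalling or are well known foxo targets, had a start at any of the 193 peaks.

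The peaks between divergent starts were about as strong as the other promoter peaks. Their median signal was 91.1 (69.5 to 424), against 90.3 (69.0 to 609) in other promoter peaks. Both sets came from a list that ends at a signal of 69.0, so weaker peaks of either kind were not compared. The median of all promoter peaks was exceeded by 97 of 193 (50.3%) between divergent starts and by 273 of 547 (49.9%) of the other promoter peaks (exact Fisher test, two-sided, p = 1). Among the top regions of replicate 6 alone the shares were 43.1% between divergent starts and 51.9% in the others (exact Fisher p = 0.0548), and in replicate 5 alone 51.1% and 49.5%.

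A peak was called recovered in a replicate when one of that replicate's top regions had its summit within 150 bp. Of the 193 peaks, 94 (48.7%) were recovered in both replicates, where 43.9% of the whole IDR list was. The share was 42.6% (233 of 547) in other promoter peaks (exact Fisher test, two-sided, p = 0.152). Replicate 5 recovered 142 (73.6%) and replicate 6 recovered 132 (68.4%), against 66.5% and 70.4% of the other promoter peaks. In 13 peaks neither replicate did. The median rank was 738 in replicate 5 and 1034 in replicate 6 between divergent starts, against 739 and 714 in other promoter peaks. Spearman's correlation of the 2 replicates' signals was 0.219 over the 181 peaks with a region in both, and 0.207 over 500 other promoter peaks. These are descriptions across peaks of the same 2 libraries.

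In 10 peaks no region of replicate 5 came within 150 bp, and in 2 none of replicate 6. The 10 included Coq3/Pld3 (signal 129, rank 701 in replicate 6) and lncRNA:CR45805/Pdk1, next to the kinase that phosphorylates Akt (signal 74.1, rank 418 in replicate 6). The 2 were ninaG/Sptz, with rank 1264 in replicate 5, and Spn27A/CG34310, with rank 633. These pairs were named after their values were seen.

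**Figure D4:**
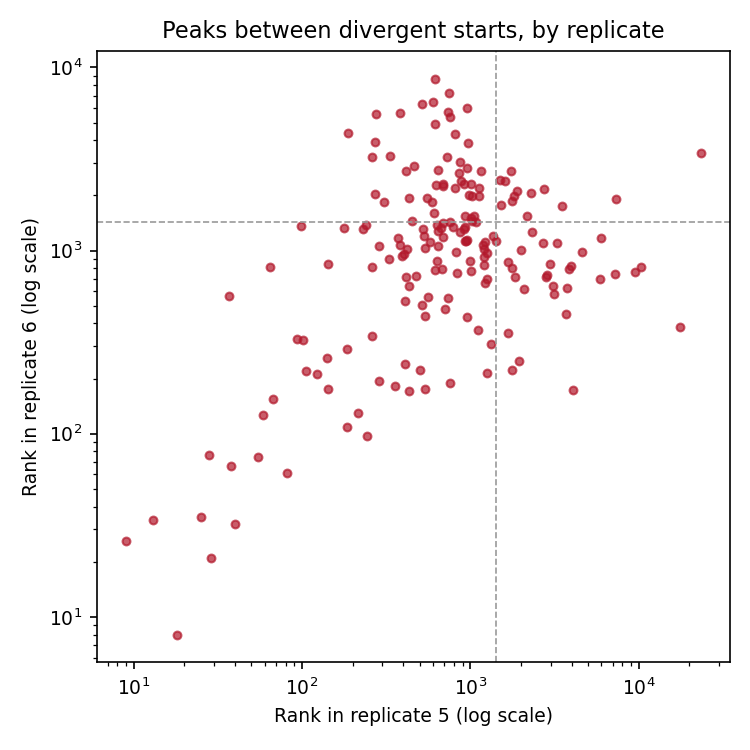
Rank of each peak between divergent starts in replicate 5 (horizontal axis, log scale) and in replicate 6 (vertical axis, log scale), for the 181 peaks with a region in both. Dashed lines mark the last rank of the top regions. The 94 peaks below and left of them were recovered in both, while 13 of all 193 were recovered in neither.

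Base composition differed between the 2 kinds of promoter peak. The 201 bp around the summit had a median GC content of 34.8% between divergent starts and 38.8% in other promoter peaks. The common median was exceeded by 57 of 193 (29.5%) between divergent starts and by 307 of 547 (56.1%) of the others (exact Fisher test, two-sided, p = 2.25e-10). Replicate 5 alone gave 35.3% and 51.3%, and replicate 6 alone 23.4% and 56.1%. Mean GC content was 36.0% between divergent starts and 40.0% in other promoter peaks. In 201 bp at the middle of the divergent gaps it was 34.6%, both in occupied gaps and in gaps with no foxo summit. A low GC content was thus shared by divergent gaps without a peak.

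Of 13 sequence words searched on both strands in those windows, 6 differed at an adjusted p under 0.05 (46.2%; exact Fisher tests with Benjamini-Hochberg adjustment over the 13). TATCGATA was in 23 of 193 windows (11.9%, 7.71 to 17.3) between divergent starts and 10 of 547 (1.83%) of other promoter peaks, a 6.52-fold difference (adjusted exact p = 6.14e-07). For comparison, 5.28% of windows of the same length upstream of all 23581 TSSs and 7.65% of windows at the middle of all 3111 gaps held it. GAGAGAG was in 4 windows (2.07%) between divergent starts and in 97 (17.7%) of the others (adjusted exact p = 9.76e-09), with 5.59% upstream of all TSSs and 2.64% in all gaps. Both differences had the same direction in each replicate alone. TATCGATA reached 14.1% against 2.73% in replicate 5 and 13.2% against 2.11% in replicate 6, and GAGAGAG 2.72% against 11.1% and 7.19% against 22.4%.

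TATAAA was in 39.9% of windows between divergent starts and 26.0% of the others (adjusted exact p = 0.0015), with 32.9% upstream of all TSSs and 39.7% in all gaps. It passed in each replicate alone, at 36.4% against 25.9% in replicate 5 and 34.7% against 24.1% in replicate 6. The homeodomain core TAATTA was in 22.3% and 11.7% (adjusted exact p = 0.0017; 13.9% and 20.8%), and the E-box CAGCTG in 20.2% and 12.1% (adjusted exact p = 0.0207; 11.2% and 11.8%). Both calls were lost in replicate 5 alone, where TAATTA was in 21.2% against 14.2% (adjusted exact p = 0.0903) and CAGCTG in 19.0% against 12.3% (adjusted exact p = 0.0862). In replicate 6 alone both passed, at 16.8% against 9.72% for TAATTA and 22.2% against 11.7% for CAGCTG. The short forkhead core TAAACA, which overlaps the reverse complement of TGTTTAC, was in 32.1% and 22.7% (adjusted exact p = 0.0258; 21.9% and 27.6%). It passed in neither replicate alone, with 31.0% against 26.5% in replicate 5 (adjusted exact p = 0.407) and 31.7% against 23.8% in replicate 6 (adjusted exact p = 0.0838). TGTTTAC itself was in 19 of 193 windows (9.84%) between divergent starts and 31 of 547 (5.67%) of the others (adjusted exact p = 0.121), with 5.26% upstream of all TSSs and 7.33% in all gaps. In replicate 5 alone it was 6.52% between divergent starts and 7.41% in the others, and in replicate 6 alone 8.98% and 6.48%. Within 200 bp of the summit it was in 21.2% and 12.8% (adjusted exact p = 0.0125), and within 50 bp in 3.11% and 3.11%.

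GGTCACACT, the word of the promoter factor M1BP, was in 1.55% and 0.914%, the Myc E-box CACGTG in 4.15% and 2.93%, the GATA word TGATAAG in 2.59% and 4.39%, the nuclear receptor word AGGTCA in 0.518% and 2.74%, the CREB word TGACGTCA in 1.55% and 0.914%, and AAAAAAA in 22.8% and 20.7%, each first between divergent starts and then in other promoter peaks. None of these 6 passed the adjusted exact test, although GGTCACACT did within 200 bp of the summit, at 6.22% and 2.56% (adjusted exact p = 0.0376), and AAAAAAA did in replicate 6 alone, at 25.7% and 17.3% (adjusted exact p = 0.0422). Upstream of all TSSs the 6 were in 2.11%, 2.29%, 5.20%, 3.80%, 0.373% and 18.8% of windows.

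The words were also compared in windows of low GC content only. Among windows of at most the median GC content, 136 between divergent starts and 240 of other promoter peaks, a comparison added after the first results were seen, 0 of the 13 words passed the adjusted exact Fisher test and 4 had an unadjusted p under 0.05. TATCGATA was then in 9.56% and 2.50% of windows (adjusted exact p = 0.0701), and GAGAGAG in 1.47% and 7.50% (adjusted exact p = 0.0754). Their directions were those of the full comparison. These windows were fewer than the 193 and 547 of the full comparison, so a difference of the same size was harder to detect. Some differences were also smaller. In percentage points they went from 10.1 to 7.06 for TATCGATA, -15.7 to -6.03 for GAGAGAG and 13.9 to 5.27 for TATAAA. For TAATTA they were 10.6 and 10.9, for CAGCTG 8.14 and 8.06, and for TAAACA 9.46 and 8.24. How much of any of these differences goes with GC content was not tested further.

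**Figure D5:**
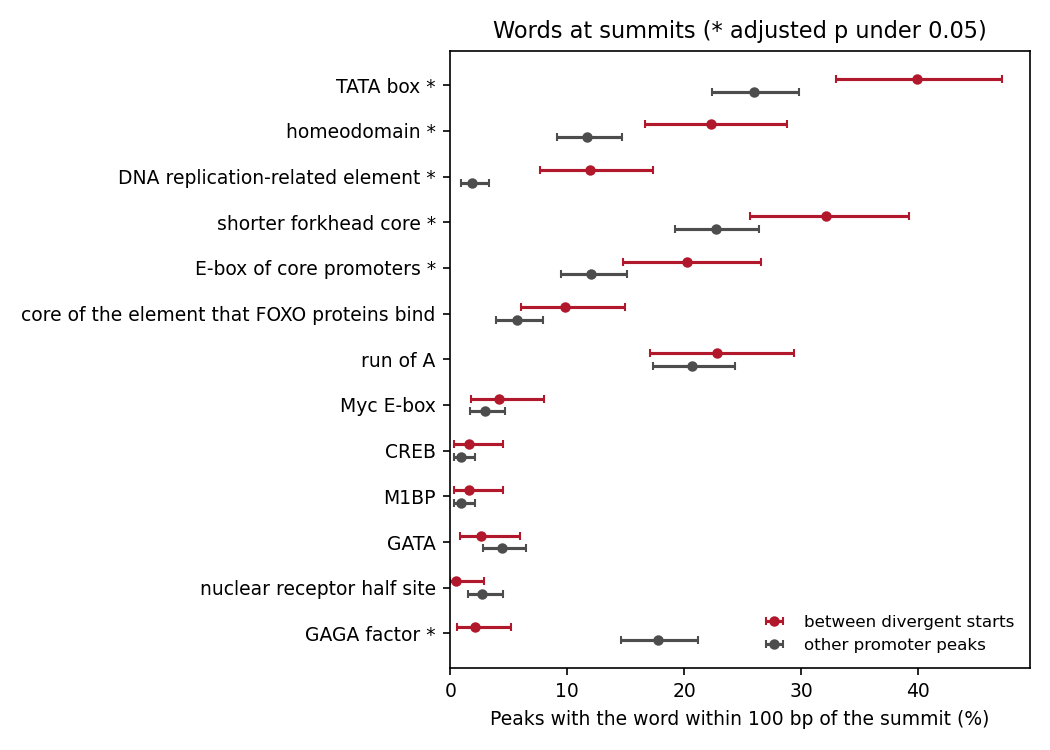
Share of peaks with each of 13 sequence words within 100 bp of the summit (horizontal axis, %), with exact 95% binomial intervals, for the 193 peaks between divergent starts (upper point) and the 547 other promoter peaks (lower point). Words are listed by the factor or element they are known for, and asterisks mark the 6 with an adjusted p under 0.05.

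A scan of all 8192 words of 7 letters, counting both strands, called 19 (0.232%; exact Fisher tests with Benjamini-Hochberg adjustment), 11 higher between divergent starts and 8 lower. All 8 lower words held GAGAG or GAGCG on either strand, led by CTCTCTC, the complement of GAGAGAG. The word AAGAGCG, with GAGCG only, is not a GA repeat. Of the 11 higher words, 3 held CGATA or its complement (such as CTATCGA, in 17.1% and 3.66% of windows, and ATCGATA, in 20.7% and 6.58%), 4 were made of A and T only (such as TTAAAAA, in 35.8% and 17.7%), and the other 4 were AGAGATG and AGTTTAA, ahead of ACTACCA and then GTTGTCA in order of p. The word AGAGATG was in 25 windows (12.95%) between divergent starts and 14 (2.56%) of other promoter peaks (adjusted exact p = 0.000636). It was also the 1 word called among windows of at most the median GC content, at 15.4% and 2.08% (adjusted exact p = 0.0155). Replicate 5 alone gave 4 calls and replicate 6 alone 31.

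Within the windows, matches lay on both sides of the 50 bp mark. Of the 23 peaks with TATCGATA, 12 had it centred within 50 bp of the summit (median 47.5 bp). Of the 19 with TGTTTAC, 8 did (median 55 bp), the closest at 3 bp. The median signal of the 23 peaks with TATCGATA was 87.1 and that of the 19 with TGTTTAC 88.6. The 23 included RpL19/CG3776, RpL41/NaCP60E and RpL34a/Trmt61, at 3 ribosomal protein genes, and Cp190/CG4338, next to an insulator protein gene. The Dref/RpL13 peak was not among them.

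Occupied and unoccupied divergent gaps were then compared for the same words. In 201 bp at the middle of each gap, 0 of 13 words (0%) passed the adjusted exact Fisher test between the 151 occupied and the 2935 unoccupied gaps, and 2 had an unadjusted p under 0.05. TATCGATA was in 12.6% of occupied and 7.43% of unoccupied gaps (exact p = 0.0273, adjusted 0.177). Within 200 bp of the middle it was in 24.5% and 14.3% (adjusted exact p = 0.00877), but within 50 bp in 4.64% and 4.36%. In gaps over 200 and up to 400 bp only, TATCGATA was in 9.57% and 5.91% (adjusted exact p = 0.763). It did not pass in replicate 5 alone (12.4% against 7.48%, adjusted exact p = 0.268) or replicate 6 alone (13.6% against 7.44%, adjusted exact p = 0.0767). GGTCACACT was in 0 of 151 occupied gaps and in 4.02% of unoccupied ones (exact p = 0.00393, adjusted 0.0511). It passed when the rule's distance was 250 bp (0% against 5.19%, adjusted exact p = 0.0481) or 1000 bp (0% against 3.44%, adjusted exact p = 0.0344). Within 200 bp of the middle GGTCACACT was in 5.30% and 9.54% (adjusted exact p = 0.185). It did not pass in replicate 5 alone (1.46% against 3.93%, adjusted exact p = 0.32) or replicate 6 alone (0% against 3.99%, adjusted exact p = 0.0767). TGTTTAC was in 6.62% of occupied and 7.33% of unoccupied gaps, and TAAACA in 25.2% and 27.7%. Within 200 bp of the middle both were higher in occupied gaps, at 19.2% and 13.7% for TGTTTAC and 53.6% and 44.9% for TAAACA, and neither passed (adjusted exact p = 0.185 for each). Mean GC content was 34.6% in both. With 151 occupied gaps, small differences could not be detected.

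Gaps between 2 protein-coding genes held foxo summits more often than gaps with a non-coding partner. The shares were 136 of 2500 (5.44%) for coding pairs and 15 of 611 (2.45%) for the others (exact Fisher test, two-sided, p = 0.0015). Replicate 5 alone gave 5.16% and 1.31% (exact p = 4.67e-06), and replicate 6 alone 4.52% and 3.11% (exact p = 0.145), so without replicate 5 the difference did not pass. Of the 193 peaks, 176 (91.2%) lay between 2 coding genes and 17 between a coding and a non-coding gene, of which 13 were long non-coding or antisense RNAs, 2 pseudogenes and 2 tRNAs. In 8 of the 17 the coding start was the nearer one. The strongest of the 17 was between tRNA:Tyr-GTA-1-8 and CG8036, with signal 181 and ranks of 94 in replicate 5 and 327 in replicate 6.

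The X chromosome held few of these peaks. Gaps on X were occupied in 7 of 483 cases (1.45%) and gaps on the other chromosomes in 144 of 2628 (5.48%; exact Fisher test, two-sided, p = 2.76e-05), a comparison added after the counts were seen. The shares were 1.66% and 4.91% in replicate 5 alone, and 1.24% and 4.79% in replicate 6 alone. Of the peaks between divergent starts 10 of 193 (5.18%) were on X, against 76 of 547 (13.9%) of the other promoter peaks (exact Fisher test, two-sided, p = 0.000958). The sexes were pooled, so in the comparison of gaps X copy number and the chromosome itself cannot be told apart. The 2 kinds of promoter peak came from the same libraries, and of all gaps 15.5% were on X. The cause of either difference was not tested.

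The pairs were made of 402 genes, 385 of them among the 13945 protein-coding genes (2.76%). Of the 5447 coding genes at a gap between adjacent divergent starts, 380 (6.98%) were at a peak, and this is what having a divergent start means below. The gene lists below were compiled with earlier results of these data known, so their counts are descriptions, set beside both shares. Of 93 genes with names of cytoplasmic ribosomal proteins 16 had a start at a peak (17.2%), which is 27.6% of the 58 with a divergent start. RpL14 of the large subunit, paired with Nelf-E, a gene for a subunit of the negative elongation factor of transcription, had signal 139. It ranked 408 in replicate 5 and 240 in replicate 6. RpL32, paired with CG7943, had signal 139 and ranks of 357 and 182. The other 14 had signals of 70.2 to 129. One of the 16, RpLP0-like, is a relative of a ribosomal protein and not itself one of the ribosome's set.

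Of 73 mitochondrial ribosomal protein genes 7 were at a peak (9.59%, and 12.3% of the 57 with a divergent start), led by mRpS23 and mRpS10. Of 35 chromatin regulators 8 were (22.9%, and 42.1% of the 19 with a divergent start). These were Chro, Gcn5, the histone acetyltransferase of the SAGA complex, Sin3A, Dref, Cp190, brm, mor and BEAF-32. Gcn5 had signal 158 and ranks of 185 in replicate 5 and 290 in replicate 6. Dref and RpL13 shared 1 peak, of signal 106 and ranks 406 and 957. The BEAF-32 peak, paired with asRNA:CR42254, had signal 77.3 and ranks 1020 and 1459.

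The other lists had at most 3 genes each at one of the 193 peaks, which is what being at a peak means here. Among 90 oxidative phosphorylation genes 3 were at a peak (3.33%), with ND-ASHI (signal 107) and ND-SGDH (95.3), both of complex I, the first. Among 48 proteasome genes 2 were (4.17%), the lid subunits Rpn5 (84.7) and Rpn3 (76.2). Among 33 aminoacyl-tRNA synthetases 2 were (6.06%), GluProRS (91.1) and SerRS (78.2). Among 44 translation initiation factor genes 1 was (2.27%), eIF3a (72.7). Of genes with a divergent start the shares were 6.25%, 7.69%, 8.70% and 4.55% for these lists in that order, near the 6.98% over all coding genes. Of 20 autophagy genes only Atg17 (75.3), of the Atg1 complex, was at a peak (5%). Of 31 insulin and TOR signalling genes only Pdk1 was (3.23%). Of 28 stress genes only Hsc70-4 (71.9), a constitutive chaperone, was (3.57%). Among genes with a divergent start these shares were 6.25%, 7.69% and 5.88%. Pdk1 had no region in replicate 5, and Atg17 ranked 5953 in replicate 5 and 1174 in replicate 6. None of 33 vacuolar proton pump, 27 replication and cell cycle and 26 splicing genes was at one of the 193 peaks. Of these, 14, 13 and 25 have a divergent start, and 6.98% of all such coding genes were at a peak. With so few genes, whether these lists fall below that share was not tested. Other promoter peaks were at 7 of the insulin and TOR signalling genes, 6 of the stress genes and 2 of the replication and cell cycle genes. They were also at 2 initiation factor, 1 oxidative phosphorylation and 1 proton pump gene. They were at 0 of the proteasome, synthetase, autophagy and splicing genes, and at 486 of the 13945 protein-coding genes.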

How the data were processed

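The authors deposited interval lists on dm6. Per the samples' deposited notes, lists with a loose threshold were made from each replicate and from the pool. The thresholded list came from comparing replicates by irreproducible discovery rate (IDR), a method that uses how alike regions rank in replicates. The IDR list held the same regions as the first 1427 of the pooled list by signal, so a single peak could rank unlike in the 2 replicates. Aligner and peak caller are not given in the sources used here. Deposited signal values are on an unstated scale and served only to rank and describe. The deposited −log10 q-value was 3.49 for every IDR peak. At q of at most 0.01, replicate 5 had 1061 regions and replicate 6 had 6870. Lists hold no read counts, so depth is unknown and intervals cover counting error only.

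Summits were set against TSSs of Ensembl release 115 without transposable elements. Words were searched in 201 bp of the RefSeq Release 6 genome. Median splits, word shares and occupancy were tested with exact Fisher tests, density with an exact binomial test, intervals were Clopper-Pearson (scipy 1.17.1, Python 3.11.15), and the word scan was tested on simulated data. Members and lists were chosen with earlier results of these data known. Genes named were those at the 12 members of highest signal, up to 2 per gene list, and further ones singled out after their values were seen. Alternatives were the stronger 0.5 of the list by signal, each replicate's own top regions, coding TSSs, distances of 250 and 1000 bp, other windows and matches, and other reference sets. Sequences of chromosome arm 2R were not considered for printing. The dm3 lists were not used.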

Additional observations from a re-analysis of the deposited data

How the results depend on the processing

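No paired analysis was possible because there is 1 group. The density ratio, the GC difference, recovery and the X comparison kept their direction and their side of the threshold under every alternative run for them. The divergent share was 21.3% to 26.4% with 1 replicate left out, and the difference in gap occupancy for coding pairs 1.41 to 3.85 percentage points; with coding TSSs only, that comparison could not be made. The difference in the share above the median signal was -11.9 points in the stronger peaks above the middle rank, -8.75 to 1.57 with a replicate left out, -1.34 at 1000 bp and -1.76 against upstream peaks only, and it passed the test under none. Words called numbered 2 among those stronger peaks, 3 to 6 with a replicate left out, 3 with the 50 bp window, 8 with the 200 bp window (adding TGTTTAC and GGTCACACT) and 0 at low GC content. 7-letter words called numbered 3 among those stronger peaks, 4 to 31 with a replicate left out, 2 and 88 with 50 and 200 bp windows and 1 at low GC content. Gap words called numbered 1 at 250 bp and 1 at 1000 bp, in both GGTCACACT, and 2 with the 200 bp window, of which 1 was TATCGATA. The causes were not tested. Of the single words, the difference between divergent starts and other promoter peaks, with a replicate left out, was -0.886 to 2.50 for TGTTTAC, -0.536 to 1.39 for GGTCACACT, -1.33 to -0.0117 for CACGTG, -1.92 to 1.13 for TGATAAG, -0.374 to 0.697 for TGACGTCA and -1.50 to 8.41 for AAAAAAA. Elsewhere it turned to 0.0618 for TGATAAG and -4.97 for AAAAAAA at 1000 bp, -0.294 for AAAAAAA with the 200 bp window and -3.87 for AAAAAAA at low GC content. Between occupied and unoccupied gaps the difference was -3.73 to 0.459 for TAAACA with a replicate left out and 1.84 with the 50 bp window, 1.01 for TGTTTAC at 1000 bp, and 5.51 for TGTTTAC and 8.70 for TAAACA with the 200 bp window. No call turned round: the single words that did were ones that had not passed. The number of peaks and 2 replicates limit precision, and the depth is unknown.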
